A study of Rattus norvegicus with 2 samples.

Results

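The chemokine ligands of the fetal rat colon were taken as every gene in the feature lists whose symbol is Ccl or Cxcl followed by digits, Cx3cl1 or Xcl1. The rule found 34 genes of 28116 symbols, each with 1 identifier. They were counted in single cells of colon at E19.5 (days of embryonic development) from wild-type Rattus norvegicus, with 1 control library and 1 library from fetuses of mothers obese in pregnancy, the maternal obesity group. The labels used here do not give the strain, the sex, the stretch of colon or the number of fetuses behind a library. With 1 library per group there is no replicate, no test and no p-value: every comparison is between 2 libraries, and every interval is a 95% interval that covers counting error only.

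Barcodes were kept where 500 or more genes were seen and mitochondrial transcripts did not exceed 20%, which left 6879 in control and 7236 in maternal obesity. They held 92471410 and 103848108 unique molecular identifiers (UMIs, each standing for 1 captured transcript), at a median of 9912 and 10104 per cell. Ligand transcripts made up 104784 and 113532 of these UMIs, 1133 and 1093 CPM (UMIs per 1000000 UMIs). Haemoglobin genes took 3.49% and 10.1%, and 80 kept barcodes occurred in both libraries. Immediate early genes, which respond within minutes to handling and enzymes as well as to signals in the tissue, were abundant in both libraries: Fos was at 1284 and 1576 CPM, Egr1 at 1004 and 1646 CPM and Atf3 at 656 and 291 CPM. The part of dissociation in the ligand levels was not tested.

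Chemokines are small secreted proteins that bind G-protein-coupled receptors on leukocytes and other cells and direct where those cells move. They are named after the spacing of their first cysteines, as CC, CXC, CX3C and XC ligands. Some are induced by inflammatory signals, such as the neutrophil-attracting Cxcl1, Cxcl2 and Cxcl3 and the monocyte-attracting Ccl2. Others are made constitutively and place cells in a developing tissue, such as Cxcl12, Cxcl13, Ccl19 and Ccl21. In gut, Ccl20, Ccl25 and Ccl28 are known as epithelial ligands that draw lymphocytes and dendritic cells to the mucosa.

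Every ligand but 1 was seen. Ccl26, a ligand of the eosinophil receptor Ccr3, had 0 UMIs in both libraries, which allows up to 3 UMIs in each. Ccl1 had 6 and 7 UMIs in control and maternal obesity, and Ccl28 10 and 3 UMIs, so neither could be compared at this depth. The other 31 ligands had at least 20 UMIs over both libraries. The largest UMI sums were those of Cxcl10 (20199 and 15907 UMIs), Cxcl2 (16442 and 14411 UMIs), Ccl2 (8118 and 20951 UMIs), Cxcl1 (17105 and 9757 UMIs) and Ccl20 (7647 and 9180 UMIs). The smallest were those of Ccl22 (20 and 44 UMIs), Cxcl17 (18 and 77 UMIs) and Ccl19 (1 and 118 UMIs).

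To find the source of each ligand, cells were grouped into 32 clusters with the ligands themselves left out of the clustering genes, and clusters were named from marker lists. The named classes used most here were epithelial-like (2830 and 1412 cells in control and maternal obesity), fibroblast-like (412 and 1124), subepithelial fibroblast-like (92 and 372), macrophage-like (71 and 125), T/innate lymphoid-like (87 and 191) and dendritic-like (103 and 134). Cluster C9 (199 and 293 cells) is led by the myeloid genes Lyz2, Fcnb and Il1b and held transcripts of the macrophage, monocyte/granulocyte and dendritic marker lists together (4816 and 5081 CPM, 5667 and 6061 CPM and 16737 and 18865 CPM), so it was left unnamed. Each of these 6 named classes had UMIs of every marker of its own list that was in the feature lists. The names came from the same lists, so this is no check of them. The gut markers Muc2 and Col1a2 and 4 other listed markers were not analysed here. Ligand levels are given as UMIs of the ligand per 1000000 UMIs of the class in that library.

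Ligand transcripts were densest in macrophage-like cells, at 24920.0 and 14676 CPM in control and maternal obesity, and in cluster C9, at 15367 and 8072 CPM. Subepithelial fibroblast-like cells had 3387 and 3949 CPM, fibroblast-like cells 2015 and 2369, T/innate lymphoid-like cells 4606 and 2347 and epithelial-like cells 804 and 622. Monocyte/granulocyte-like cells, with 48 and 33 cells, had 1658 and 2628 CPM of Ccl6 and 1636 and 2411 CPM of Cxcl2. Enteric glia-like cells had 32.4 and 36.7 CPM over all ligands. Enteric neuron-like cells had 60.1 and 84.5 CPM, and erythroid-like cells were at 27.4 and 17.5 CPM. The epithelium was so numerous that it still held 43.3% of all ligand UMIs in control and 23.4% in maternal obesity. Fibroblast-like cells held 6.85% and 23.1%, and macrophage-like cells 16.3% and 13.5%.

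**Figure D1:**
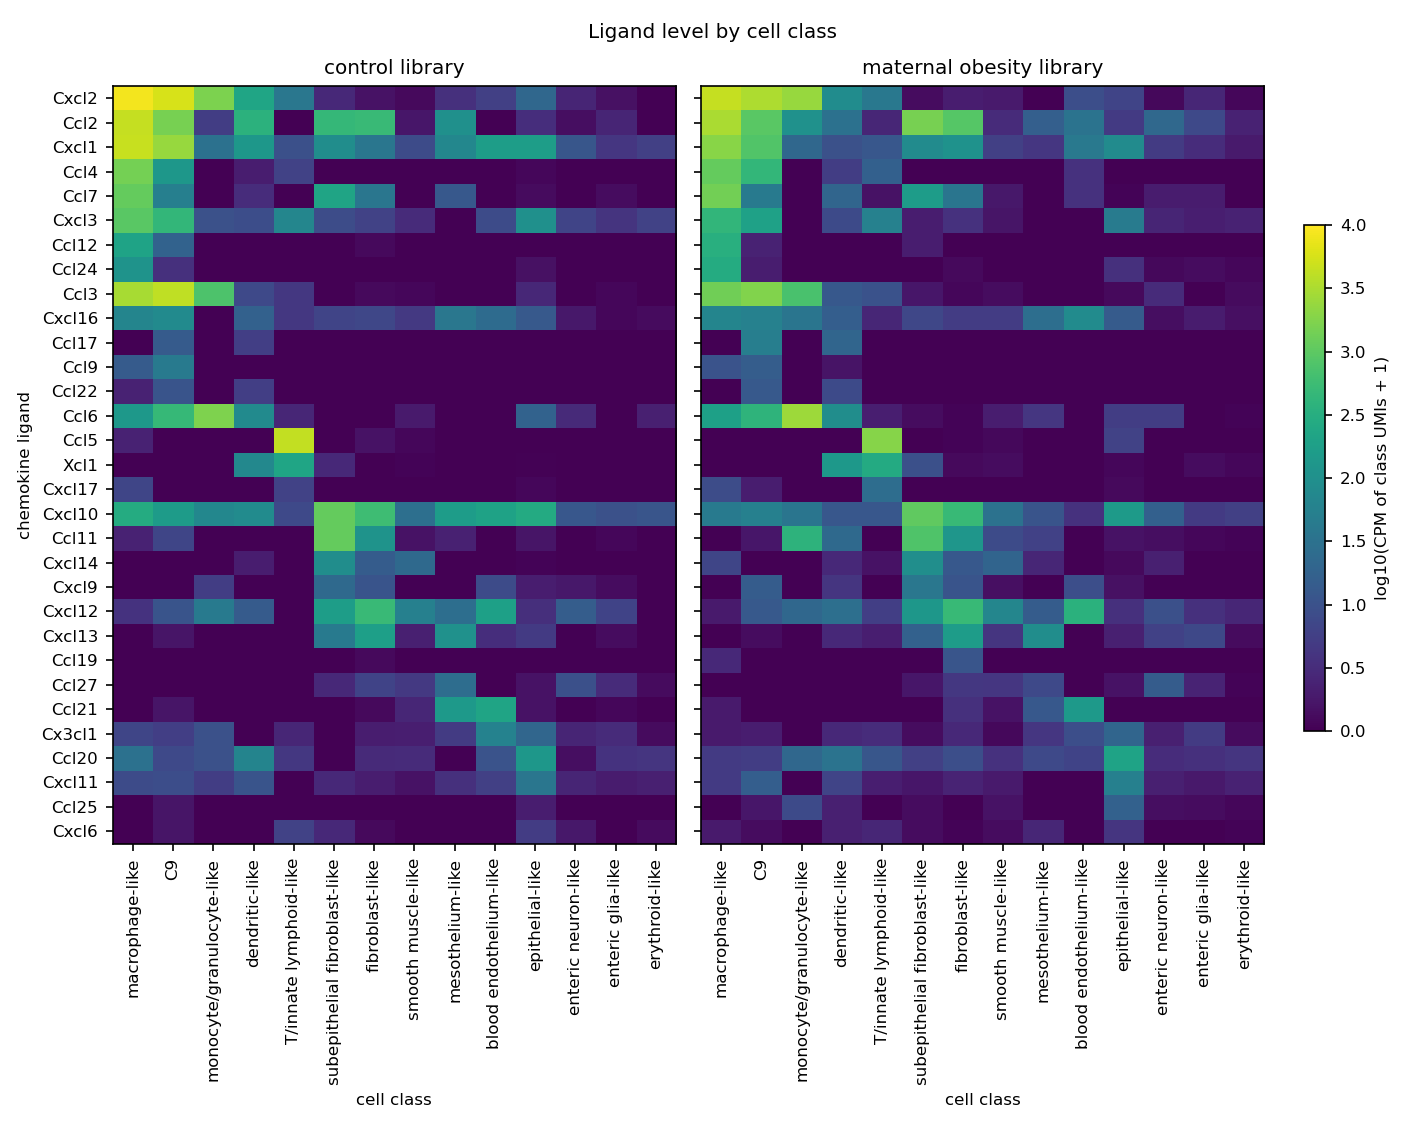
Level of the 31 ligands with at least 20 UMIs (rows) in 14 cell groups (columns), as log10 of CPM of the group's UMIs plus 1, for the control library on the left and the maternal obesity library on the right. Cxcl2, Cxcl1 and Ccl3 are brightest in the macrophage-like and C9 columns, Ccl2 and Ccl4 in the macrophage-like column, Ccl11 and Cxcl10 in the subepithelial fibroblast-like column, Ccl5 in the T/innate lymphoid-like column, and Ccl20 in the epithelial-like column.

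Over all kept cells, 10 of the 31 measured ligands were at least 2-fold higher in maternal obesity and 2 at least 2-fold lower. Among all 16089 genes with at least 20 UMIs the same limits were passed by 9.75% upwards and 4.16% downwards. The ligands higher were Ccl11, Ccl17, Ccl19, Ccl2, Ccl24, Ccl25, Cxcl12, Cxcl17, Cxcl9 and Xcl1, and those lower were Ccl21 and Cxcl3. Sums over all cells move with the make-up of the libraries: fibroblast-like cells were 5.99% of cells in control and 15.5% in maternal obesity, and epithelial-like cells 41.1% and 19.51%. When each cluster with at least 20 cells in each library counted equally, 5 ligands were at least 2-fold higher (Ccl17, Ccl19, Ccl24, Ccl25 and Cxcl17) and 4 lower (Ccl21, Ccl5, Ccl9 and Cxcl1).

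Each ligand was therefore also compared within its main source class, the named class of highest mean CPM among classes with at least 50 cells in each library. Ccl9 and Ccl22 had fewer than 20 UMIs there. Of the other 29 ligands, 6 were at least 2-fold higher in maternal obesity (Ccl17, Ccl19, Ccl21, Ccl24, Ccl25 and Cxcl17), against 6.15% of all genes treated the same way. The 4 ligands at least 2-fold lower were Ccl3, Ccl5, Cxcl1 and Cxcl3, against 4.06% of all genes. The median log2 ratio of the ligands was 0.08, beside 0.05 over all genes, whereas over all cells it was 0.61 beside 0.09. Ccl2, Ccl11 and Cxcl12 lost their 2-fold difference within the source class, while Ccl25, Ccl19 and Ccl24 kept it. Of the ligands higher, only Ccl19, Ccl24 and Ccl25 had 50 or more UMIs in the source class. For Ccl21 that class was the fibroblast-like one, which held only 0.398% in control and 28.0% in maternal obesity of its UMIs. It had 1 and 28 UMIs there, 46.4% of the latter in 1 cell, and over all cells Ccl21 was at least 2-fold lower.

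**Figure D2:**
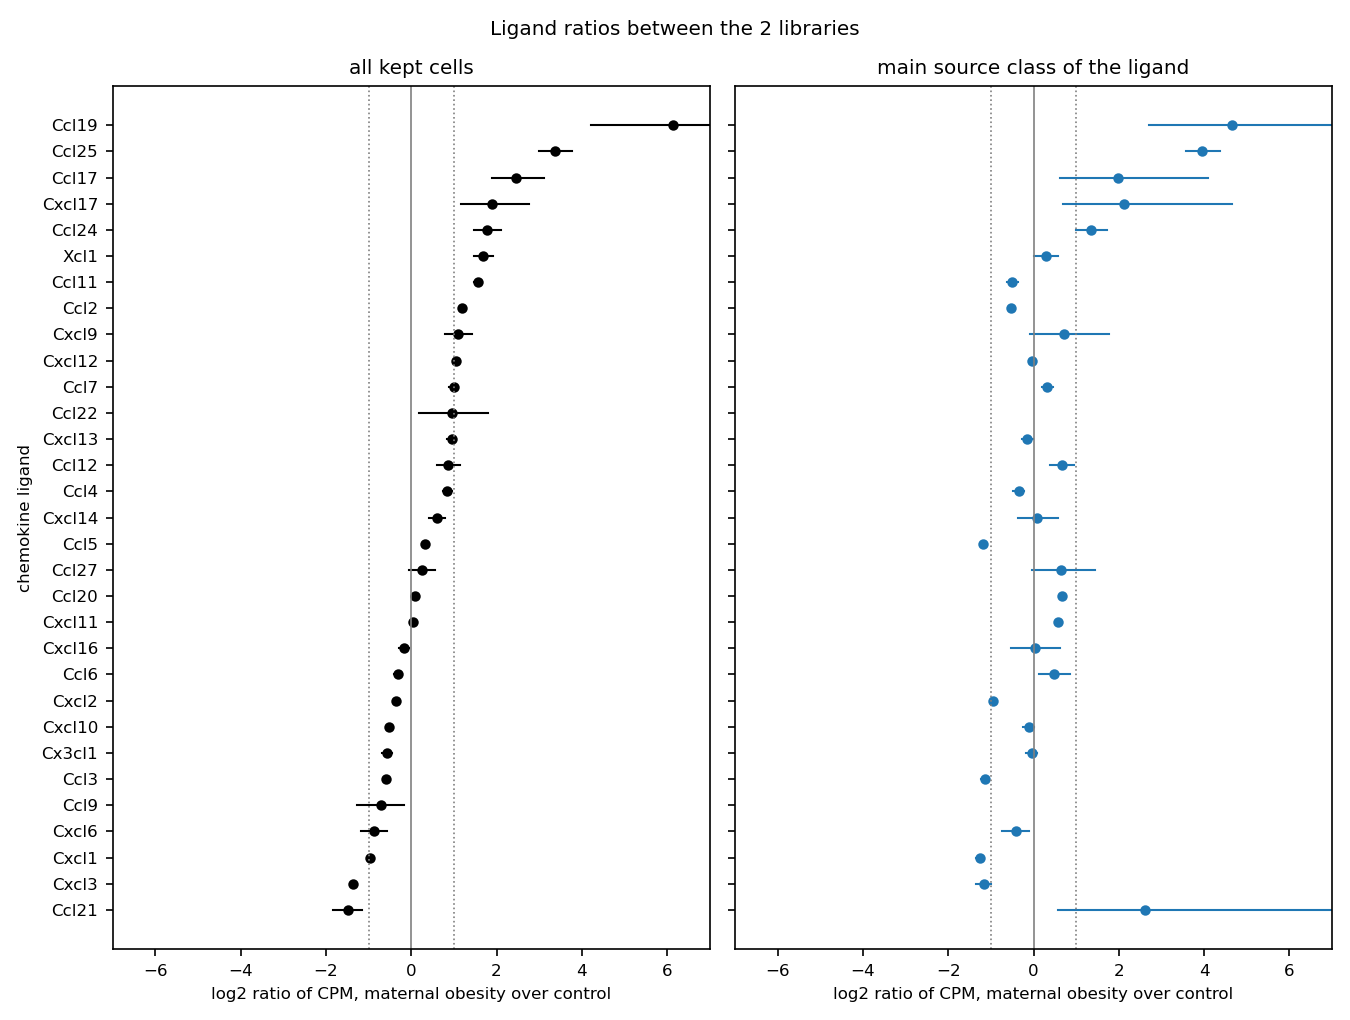
Log2 ratio of CPM in maternal obesity over control for the 31 ligands over all kept cells (left) and for 29 of them within their main source class (right). Points are ratios, horizontal lines 95% counting intervals that are clipped at the edge of the plot, and dotted lines mark 2-fold. Ccl25 lies to the right of the dotted line in both panels, and Ccl2 and Ccl11 lie to the right of it on the left and to the left of 0 on the right.

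Cxcl1, Cxcl2, Cxcl3 and Cxcl6 are CXC ligands of the neutrophil receptor Cxcr2. Cxcl2 was mainly myeloid, with 33.6% of its UMIs in the macrophage-like class and 57.6% in cluster C9. In macrophage-like cells Cxcl2 was at 8441 CPM in the control library (8225 to 8661) and 4373 CPM after maternal obesity (4248 to 4502), which is 1.93-fold lower after maternal obesity (1.86 to 2.01). In C9 it was at 5778 CPM in the control library and 3244 CPM after maternal obesity, 1.78-fold lower after maternal obesity (1.73 to 1.83). Monocyte/granulocyte-like cells went the other way, at 1636 CPM in the control library and 2411 CPM after maternal obesity, from 48 and 33 cells, with 42.1% and 53.5% of the UMIs in 1 cell of each library. Both large myeloid groups thus had a lower Cxcl2 level in the maternal obesity library.

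Cxcl1 had a second large source in the epithelium. Its level in macrophage-like cells was 4627 CPM in the control library and 1931 CPM after maternal obesity, 2.40-fold lower after maternal obesity (2.27 to 2.53). C9 had 2445 CPM in the control library and 829 CPM after maternal obesity, 2.95-fold lower after maternal obesity (2.80 to 3.11). The epithelial-like class had 167 CPM in the control library and 85.4 CPM after maternal obesity, 1.96-fold lower after maternal obesity (1.88 to 2.03). Fibroblast-like cells showed the opposite order at a lower level, 36.8 CPM in the control library and 107 CPM after maternal obesity, 2.89-fold higher after maternal obesity (2.42 to 3.50). The 3 fibroblast-like clusters shared that order, at 28.4 and 76.2 CPM in C1, 35.0 and 107 in C16 and 43.8 and 131 in C25, whereas subepithelial fibroblast-like cells had 90.7 and 84.8 CPM.

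Cxcl3 was lower in maternal obesity in each of its main sources. It was at 99.9 CPM in the control library and 44.8 CPM after maternal obesity in epithelial-like cells, 2.23-fold lower after maternal obesity (2.12 to 2.35). Macrophage-like cells had 957 and 426 CPM, 2.24-fold lower after maternal obesity (1.99 to 2.54). C9 had 447 and 194 CPM, 2.30-fold lower after maternal obesity (2.05 to 2.58). Within the epithelium the gap lay in clusters C0 (88.5 and 13.5 CPM), C6 (147 and 29.0 CPM) and C3 (11.7 and 5.39 CPM). Cluster C8 had 203 and 158 CPM, and the intervals of the ratio in C11, C17 and C24 include 1. Cxcl6 was nearly confined to the epithelium, which held 95.9% in control and 87.3% in maternal obesity of its UMIs, at 4.13 CPM in the control library and 3.08 CPM after maternal obesity, 1.34-fold lower after maternal obesity (1.08 to 1.67). It was highest in C8, at 11.8 and 13.5 CPM, and in C24, at 15.8 and 26.7 CPM.

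The promoters of these ligands can be read beside their levels. RefSeq (assembly GRCr8) gives a promoter for 28 of the 34 ligands, from 250 bases before to 50 after the start. The letters GGGNNTTTC, a common form of the site bound by the inflammatory transcription factor NF-kB, were searched on both strands. They occur in 8 of these 28 promoters (Ccl20, Ccl9, Cxcl1, Cxcl16, Cxcl2, Cxcl6, Cxcl9 and Xcl1) and in 4.53% of all 33469 promoters. The letters GAAANNGAA, found in interferon response elements, occur in 2 (Ccl19 and Cxcl10), and in 9.71% of all promoters. Neither count was tested, and a match is a description of letters, not of binding. The lines give the strand of the gene, up to the base before its start, with matches in capitals, for 3 Cxcr2 ligands, for the epithelial ligand Ccl20 and for the interferon-induced Cxcl10. They lie at chr14:17479322-17479471 (minus strand) for Cxcl1, chr14:17467256-17467405 (minus strand) for Cxcl2, chr14:17596418-17596567 (minus strand) for Cxcl6, chr9:91837009-91837158 (plus strand) for Ccl20 and chr14:15988816-15989065 (plus strand) for Cxcl10.
Cxcl1: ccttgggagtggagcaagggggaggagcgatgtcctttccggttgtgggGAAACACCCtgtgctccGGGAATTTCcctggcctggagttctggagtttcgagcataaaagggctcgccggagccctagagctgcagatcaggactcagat
Cxcl2: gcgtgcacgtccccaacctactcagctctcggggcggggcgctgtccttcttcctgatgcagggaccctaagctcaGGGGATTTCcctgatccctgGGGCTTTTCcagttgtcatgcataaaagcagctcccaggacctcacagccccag
Cxcl6: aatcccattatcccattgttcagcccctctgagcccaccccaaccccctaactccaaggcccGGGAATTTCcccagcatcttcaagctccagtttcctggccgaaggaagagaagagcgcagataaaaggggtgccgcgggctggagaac
Ccl20: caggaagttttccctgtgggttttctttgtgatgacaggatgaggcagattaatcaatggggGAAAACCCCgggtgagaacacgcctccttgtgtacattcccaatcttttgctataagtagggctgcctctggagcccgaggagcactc
Cxcl10: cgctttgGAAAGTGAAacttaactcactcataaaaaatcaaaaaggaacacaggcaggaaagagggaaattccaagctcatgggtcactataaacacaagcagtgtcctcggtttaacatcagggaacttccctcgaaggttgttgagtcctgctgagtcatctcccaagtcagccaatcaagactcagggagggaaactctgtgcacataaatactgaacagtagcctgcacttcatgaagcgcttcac

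Cxcl1 and Cxcl2 each hold 2 matches before the start, and Cxcl6 and Ccl20 hold 1. In GRCr8 the genes Cxcl2 and Cxcl1 have no other protein-coding gene between them. Cells were thinned at random to 3000 UMIs, so that depth was equal, and shallower cells were left out. That left out 18 control and 48 maternal obesity macrophage-like cells. Of the 45 control macrophage-like cells with Cxcl1, 43 also had Cxcl2 (95.6%), and 50 of 51 in maternal obesity (98.0%). In C9 it was 95 of 98 (96.9%) and 81 of 86 (94.2%). As shares of the cells with Cxcl2 these are 87.8% and 72.5% in macrophage-like cells and 58.6% and 37.3% in C9, so Cxcl2 was the more widespread of the pair. Cxcl2 was found in most cells of that depth in any case. These were 49 of 53 and 69 of 77 macrophage-like cells and 162 of 179 and 217 of 286 C9 cells in control and maternal obesity. Without thinning, and with shallower cells included, the shares were 77.5% and 64.0% in macrophage-like cells and 92.0% and 83.6% in C9.

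Ccl2, Ccl7 and Ccl12 are CC ligands that attract monocytes, and Ccl11 attracts eosinophils. Their genes are neighbours on chromosome 10 in GRCr8, in the order Ccl2, Ccl7, Ccl11, Ccl12 and Ccl1. Ccl2 was found in myeloid cells and in stroma. It was at 4467 CPM in the control library and 3104 CPM after maternal obesity in macrophage-like cells, 1.44-fold lower after maternal obesity (1.37 to 1.51), and at 1536 and 952 CPM in C9, 1.61-fold lower after maternal obesity (1.52 to 1.71). Stromal classes had more in maternal obesity: 461 CPM in the control library and 1539 CPM after maternal obesity in subepithelial fibroblast-like cells, 3.33-fold higher after maternal obesity (2.94 to 3.81), and 514 CPM in the control library and 893 CPM after maternal obesity in fibroblast-like cells, 1.73-fold higher after maternal obesity (1.65 to 1.82). Dendritic-like cells had 334 and 48 UMIs, at 370.1 and 29.8 CPM, 12.3-fold lower after maternal obesity (9.16 to 17.2), in 23 of 103 and 8 of 134 cells. Macrophage-like cells held 37.8% in control and 15.5% in maternal obesity of its UMIs, and fibroblast-like cells 22.6% in control and 47.1% in maternal obesity.

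Among the fibroblast-like clusters, Ccl2 was at 684 and 1342 CPM in C1 (led by Dpt, Dcn and Lum), 563 and 1057 CPM in C16 and 359 and 393 CPM in C25, so C25 showed little of the difference. The share of cells with at least 1 Ccl2 UMI after thinning was 21.9% of 384 control cells (17.8 to 26.3) and 32.5% of 1085 maternal obesity cells (29.8 to 35.4) in the fibroblast-like class, and 31.3% and 40.9% without thinning. In subepithelial fibroblast-like cells it was 27.5% of 80 control cells (18.1 to 38.6) and 40.0% of 355 maternal obesity cells (34.9 to 45.3), and 34.8% and 44.1% without thinning. In epithelial-like cells, taken as the background from free RNA, it was 0.273% and 0.595%. Median depths were 7815 and 8625 UMIs per fibroblast-like cell, 5826 and 6945 per subepithelial fibroblast-like cell and 16383 and 24628 per epithelial-like cell. The immediate early and handling genes, as a summed level, were also higher in these stromal classes, at 8772 and 11056 CPM in fibroblast-like and 10567 and 12890.3 CPM in subepithelial fibroblast-like cells, and their part in Ccl2 was not tested.

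Ccl7 had 60.9% of its UMIs in macrophage-like cells, at 1123 CPM in the control library and 1403 CPM after maternal obesity, 1.25-fold higher after maternal obesity (1.14 to 1.36). Subepithelial fibroblast-like cells had 218 and 162 CPM and fibroblast-like cells 36.2 and 35.4 CPM. Of the macrophage-like cells with Ccl7, 28 of 30 in control and 32 of 36 in maternal obesity also had Ccl2, which was found in 41 of all 53 and 56 of all 77 macrophage-like cells. Ccl12 was almost restricted to macrophage-like cells, with 83.1% in control and 98.0% in maternal obesity of its UMIs there, at 208 CPM in the control library and 329.8 CPM after maternal obesity, 1.58-fold higher after maternal obesity (1.30 to 1.94). It came from 13 of 71 and 20 of 125 cells, and the highest cell gave 44.8% and 24.9% of the UMIs.

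Ccl11 marked the subepithelial fibroblast-like class, which held 52.0% in control and 56.8% in maternal obesity of its UMIs. Its level there was 1133 CPM in the control library (1045 to 1226) and 801 CPM after maternal obesity (768 to 835), 1.41-fold lower after maternal obesity (1.29 to 1.55), although over all cells it was 2.97-fold higher after maternal obesity (2.78 to 3.17). Subepithelial fibroblast-like cells were 1.34% of the cells in control and 5.14% in maternal obesity. The share of these cells with Ccl11 was 60.0% of 80 control cells (48.4 to 70.8) and 35.5% of 355 maternal obesity cells (30.5 to 40.7), against 0.0780% and 0.0744% in epithelial-like cells. Without thinning the shares were 62.0% and 38.7% in subepithelial fibroblast-like cells. Fibroblast-like cells had 113 CPM in the control library and 124 CPM after maternal obesity, a ratio of 1.10 (0.984 to 1.23), an interval that includes 1.

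Of the 11 ligands with at least 20 UMIs in subepithelial fibroblast-like cells, 2 were at least 2-fold higher (Ccl2 and Xcl1, background 8.21%) and 1 lower (Cxcl13, background 3.44%). Xcl1 rested on 1 and 24 UMIs there. Of 17 ligands in fibroblast-like cells, 4 were at least 2-fold higher (Ccl19, Ccl20, Ccl21 and Cxcl1, background 5.75%) and 0 lower (background 1.71%). Ccl20 in fibroblast-like cells, at 1.96 CPM in the control library and 8.04 CPM after maternal obesity, was low beside its epithelial level. Of the ligands at least 2-fold higher, Ccl2 in subepithelial fibroblast-like cells and Cxcl1 in fibroblast-like cells were the most abundant.

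Ccl3 and Ccl4, CC ligands that attract macrophages and lymphocytes, were myeloid. Ccl3 was at 2981 CPM in the control library and 1352 CPM after maternal obesity in macrophage-like cells, 2.20-fold lower after maternal obesity (2.06 to 2.36). C9, which held 73.7% of its UMIs, had 4151 and 1738 CPM, 2.39-fold lower after maternal obesity (2.30 to 2.48). Monocyte/granulocyte-like cells had 750.5 and 715 CPM. Ccl4 was at 1451 CPM in the control library and 1138 CPM after maternal obesity in macrophage-like cells, 1.28-fold lower after maternal obesity (1.17 to 1.39). In C9 it was at 130.2 and 437 CPM, but 1 cell held 70.8% of the maternal obesity UMIs. Ccl9, from the same run of neighbouring genes (Ccl5, Ccl9, Ccl6, Ccl3 and Ccl4 on chromosome 10 in GRCr8), had 41.4 and 14.1 CPM in C9, 2.93-fold lower after maternal obesity (1.94 to 4.50), from 63 and 39 UMIs.

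Ccl6, a myeloid CC ligand of rodents, was highest in monocyte/granulocyte-like cells, at 1658 CPM in the control library and 2628 CPM after maternal obesity, with C9 at 472 and 399.8 CPM. It also had an epithelial source. Epithelial-like cells held 42.9% in control and 9.05% in maternal obesity of the Ccl6 UMIs, at 17.3 CPM in the control library and 4.37 CPM after maternal obesity, 3.95-fold lower after maternal obesity (3.38 to 4.65). Within the epithelium it was highest in the goblet-like cluster C6, at 76.1 and 37.3 CPM. That is 2.03-fold lower after maternal obesity (1.65 to 2.55), a smaller gap than over the class. C24 was next, at 27.6 and 16.7 CPM from 136 and 5 UMIs. Its ratio was 0.662 (0.193 to 1.44), an interval that includes 1. C0 had the other order, at 11.8 and 15.8 CPM, with a ratio of 1.35 (0.974 to 1.82), an interval that includes 1. C6 and C24 had 549 and 130 and 286 and 16 cells in control and maternal obesity. After thinning, 4.37% and 1.19% of epithelial-like cells had a Ccl6 UMI, against 0 of 384 control cells (which allows up to 0.781%) and 0.0922% of 1085 maternal obesity cells in the fibroblast-like class and 0 of 503 control cells (which allows up to 0.596%) and 0 of 506 maternal obesity cells (which allows up to 0.593%) in the enteric glia-like class.

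In macrophage-like cells 13 ligands had at least 20 UMIs. Of these, 5 were at least 2-fold lower in maternal obesity (Ccl20, Ccl3, Cxcl1, Cxcl10 and Cxcl3, background 3.58%) and 1 higher (Ccl24, background 6.96%). Their median log2 ratio was -0.53, beside 0.07 over all genes. In C9, 6 of 18 were at least 2-fold lower (Ccl12, Ccl3, Ccl9, Cxcl1, Cxcl10 and Cxcl3, background 2.96%) and 3 higher (Ccl17, Ccl4 and Cxcl9, background 8.44%). Ccl3, Cxcl1, Cxcl10 and Cxcl3 were lower in both groups. All the C9 UMIs of Cxcl9 came from 1 cell of the maternal obesity library.

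Other genes of inflammatory signalling were also lower, as summed levels, in macrophage-like cells. The NF-kB genes and targets summed to 7414 and 5486 CPM, with 1 of 9 at least 2-fold higher and 0 lower. The interferon-induced genes summed to 967 and 547 CPM and the inflammatory cytokines to 1719 and 1043 CPM, and the immediate early and handling genes to 6851 and 5985 CPM. Macrophage-like cells had median depths of 9535 and 6716 UMIs, and haemoglobin and collagen transcripts, used as a measure of free RNA, summed to 20343 and 29177 CPM. The part of these in the lower ligand levels was not tested.

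Transcripts of cells other than macrophages also differed in these groups. All 14 epithelial markers were seen in macrophage-like cells, and they summed to 2236 and 470.3 CPM. In C9 they summed to 1667 and 373 CPM, in dendritic-like cells to 2530.0 and 1069 CPM and in T/innate lymphoid-like cells to 1044 and 603 CPM. The 9 smooth muscle markers summed to 2643 and 152 CPM in macrophage-like cells and 838 and 747 CPM in C9. Macrophage markers themselves were level, at 17381 and 17466 CPM in macrophage-like cells and 4816 and 5081 CPM in C9. Cxcl10, Ccl20, Cxcl1 and Cxcl3, which the epithelium also held, were among the ligands lower in macrophage-like cells, and Ccl20 rested on 21 and 4 UMIs. The part of epithelial RNA in these differences was not tested.

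**Figure D3:**
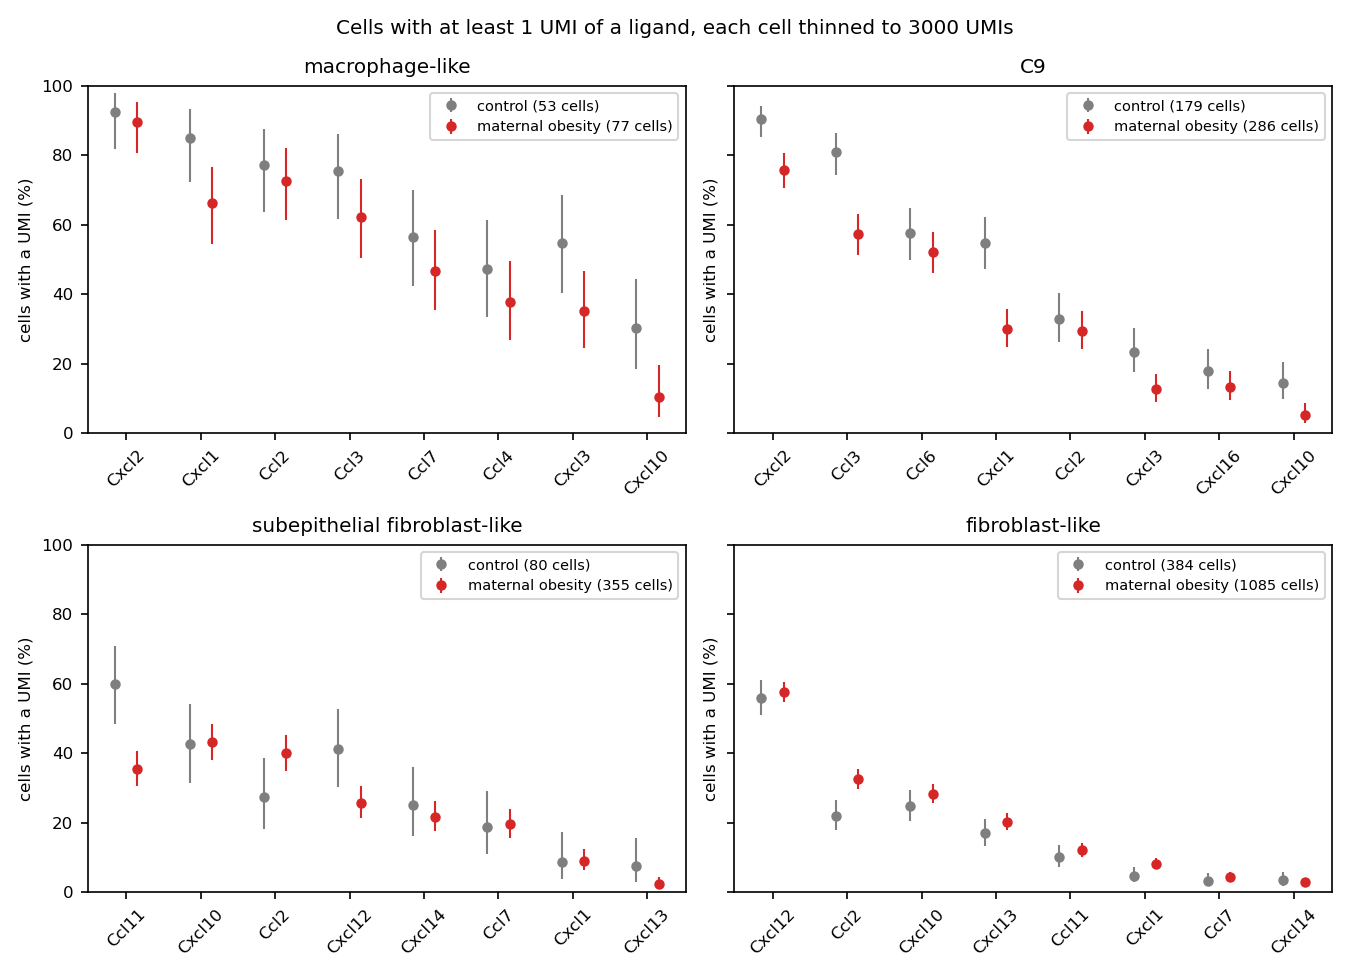
Share of cells with at least 1 UMI of a ligand in 4 cell groups, after each cell was thinned to 3000 UMIs and shallower cells were left out. Points are shares in percent for control (grey) and maternal obesity (red), and vertical lines are exact Clopper-Pearson 95% intervals. In C9, Ccl3 is at 81.0% and 57.3% and Cxcl1 at 54.7% and 30.1%. Ccl11 is at 60.0% and 35.5% in subepithelial fibroblast-like cells, and Ccl2 at 21.9% and 32.5% in fibroblast-like cells.

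Single macrophage-like cells carried many ligands at once. At 3000 UMIs per cell, the median number of different ligands in a macrophage-like cell was 6 in control (53 cells) and 5 in maternal obesity (77 cells), with up to 10 and 9. C9 cells had medians of 4 and 3, and subepithelial fibroblast-like cells 2 and 2. In C9, cells with 3 or more ligands were 86.0% in control and 63.6% in maternal obesity. Epithelial-like and fibroblast-like cells had a median of 1 in both libraries, and enteric glia-like and enteric neuron-like cells a median of 0.

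Cxcl9, Cxcl10 and Cxcl11 are ligands of Cxcr3 that interferon induces, and their genes are neighbours on chromosome 14 in GRCr8. Cxcl10 was the most broadly found of them. It was at 1140.1 CPM in the control library and 1055 CPM after maternal obesity in subepithelial fibroblast-like cells, 1.08-fold lower after maternal obesity (0.989 to 1.18), and at 580.2 and 489.7 CPM in fibroblast-like cells. Epithelial-like cells had 280.1 CPM in the control library and 151 CPM after maternal obesity, 1.86-fold lower after maternal obesity (1.81 to 1.91), and held 78.3% in control and 40.3% in maternal obesity of its UMIs. Macrophage-like cells had 287 and 44.0 CPM, 6.47-fold lower after maternal obesity (4.71 to 9.20), and C9 153 and 54.5 CPM, 2.81-fold lower after maternal obesity (2.28 to 3.47). Cxcl10 was thus nearly level in subepithelial fibroblast-like cells and somewhat lower in maternal obesity in fibroblast-like cells. It was lower by more in macrophage-like cells, in C9 and in the epithelial-like class as a whole.

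The epithelial gap in Cxcl10 followed the clusters. It was at 547 and 289 CPM in the goblet-like C6, 474 and 310.4 in C24 and 333 and 206 in C0, which are lower in maternal obesity. It was at 194 and 218 CPM in C8, 98.3 and 125 in C17 and 138 and 135 in the enteroendocrine-like C11. The epithelial-like class itself was made of different clusters in the 2 libraries: C0 was the largest in control (720 and 124 cells) and C3 the largest in maternal obesity (359 and 574 cells). Interferon-induced genes summed to 54.1 and 62.2 CPM in epithelial-like cells, and immediate early and handling genes to 5362 and 4398 CPM.

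Cxcl11 was epithelial, with 93.7% in control and 91.0% in maternal obesity of its UMIs there, at 36.1 CPM in the control library and 54.0 CPM after maternal obesity, 1.495-fold higher after maternal obesity (1.41 to 1.59). Its epithelial-like clusters differed in direction: C8 had 56.8 and 107 CPM, C3 58.9 and 62.0, C17 17.8 and 14.4 and C0 25.9 and 14.9, and the ratio in C0 was 0.581 (0.424 to 0.770). The unnamed cluster C7 had 133 and 254 CPM. Of the epithelial-like cells with Cxcl11 at equal depth, 115 of 197 in control (58.4%) and 64 of 126 in maternal obesity (50.8%) also had Cxcl10. Cxcl10 was found in 699 of 2563 and 268 of 1344 epithelial-like cells at that depth. Cxcl9 was scarce, at 22.2 CPM in the control library and 38.1 CPM after maternal obesity in subepithelial fibroblast-like cells (12 and 106 UMIs), 1.65-fold higher after maternal obesity (0.941 to 3.42), an interval that includes 1. In control 1 cell held 75.0% of those UMIs. In fibroblast-like cells at equal depth, Ccl2 and Cxcl10 were found together in 39 control and 164 maternal obesity cells, 46.4% and 46.5% of those with Ccl2. Cxcl10 was found in 95 of 384 and 306 of 1085 fibroblast-like cells at that depth. In subepithelial fibroblast-like cells, 63.6% and 69.0% of those with Ccl2 also had Cxcl10, which was found in 34 of 80 and 153 of 355.

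Cxcl12, the ligand of Cxcr4 and Ackr3, and Cxcl13, the ligand of Cxcr5, were mainly fibroblast ligands. Cxcl12 was at 510.3 CPM in the control library (487 to 534) and 501 CPM after maternal obesity (488 to 514) in fibroblast-like cells, a ratio of 0.982 (0.931 to 1.04). Its highest cluster was C25 (led by Mgp and Dlk1), at 839.8 and 832 CPM, and smooth muscle-like cells had 55.1 and 66.8 CPM. Blood endothelium-like cells had 189 and 359 CPM, but 1 cell held 48.1% of the control and 1 cell 77.3% of the maternal obesity UMIs, so no direction is read from them. Over all cells it was 2.06-fold higher after maternal obesity (1.99 to 2.15), while its level within the fibroblast-like class was close to equal.

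Cxcl13 was at 178 CPM in the control library and 161 CPM after maternal obesity in fibroblast-like cells, 1.11-fold lower after maternal obesity (1.01 to 1.21). The clusters differed in direction: C1 had 173 and 246 CPM and C25 289 and 186 CPM. Subepithelial fibroblast-like cells had 42.6 and 16.5 CPM, 2.60-fold lower after maternal obesity (1.49 to 4.34), and mesothelium-like cells 104 and 91.8 CPM, from 69 and 46 cells. Epithelial-like cells held 21.9% in control and 2.54% in maternal obesity of the Cxcl13 UMIs, at 3.81 and 1.27 CPM. Within them the goblet-like C6 had 16.9 and 2.26 CPM, from 139 and 6 UMIs, 6.91-fold lower after maternal obesity (3.34 to 20.7). Of the fibroblast-like cells with Cxcl13 at equal depth, 66.2% in control and 69.9% in maternal obesity also had Cxcl12. Cxcl12 was found in 215 of 384 and 625 of 1085 fibroblast-like cells at that depth. Cxcl14, a ligand made by stroma and epithelia, was highest in subepithelial fibroblast-like cells at 88.8 CPM in the control library and 94.5 CPM after maternal obesity, a ratio of 1.05 (0.779 to 1.48). Smooth muscle-like cells had 22.7 and 18.5 CPM.

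Ccl19 and Ccl21, the ligands of Ccr7 that lead lymphocytes and dendritic cells into lymphoid tissue, were rare. Ccl19 had 1 and 116 UMIs in fibroblast-like cells of control and maternal obesity, which is 0.281 and 10.5 CPM and a ratio of 25.0 (6.57 to 1488). These came from 1 of 412 and 11 of 1124 cells, and 1 cell held 52.6% of the maternal obesity UMIs, so few cells carried the difference. Ccl21 was highest in blood endothelium-like cells, at 216 CPM in the control library and 147 CPM after maternal obesity, and in mesothelium-like cells, at 139 CPM in the control library and 11.7 CPM after maternal obesity. Both classes had under 50 cells in a library and could not serve as its main source class. After thinning, Ccl21 was found in 1 of 28 control and 3 of 22 maternal obesity blood endothelium-like cells. Without thinning, Ccl21 was found in 2.56% and 11.4% of them, so few cells carried it and no direction is read from that class. In fibroblast-like cells Ccl21 had 1 and 28 UMIs. Ccl21 and Ccl27 belong to a region where rodents can carry near-identical gene copies, so reads may have been split or lost in counting and their levels are uncertain.

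Ccl20, the ligand of Ccr6, was nearly confined to the epithelium, with 96.8% in control and 96.2% in maternal obesity of its UMIs in epithelial-like cells. Its level was 131 CPM in the control library (128 to 134) and 207 CPM after maternal obesity (203 to 212), 1.58-fold higher after maternal obesity (1.53 to 1.63). The clusters spanned a wide range. C17 (led by Tdh, Shh and Afp) had 293 and 356 CPM, C8 (led by Rbp4 and Adora2b) 283 and 347, the enteroendocrine-like C11 175 and 170.1 and C3 (led by Mgst1, Apoc2 and Otc) 135 and 155. The goblet-like C6 had 58.4 and 116 CPM, and C0 (led by Scgb1a1 and Olfm4) 38.5 and 42.5. C24, with 286 and 16 cells, had 8.74 and 0. Within a cluster the ratio of the libraries was below that of the class in all but C6 and lay between 0.972 and 1.23 in C0, C3, C8, C11 and C17. The libraries held these clusters in different proportions.

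The share of epithelial-like cells with Ccl20 was 18.8% of 2563 control cells (17.3 to 20.4) and 29.5% of 1344 maternal obesity cells (27.0 to 32.0), and 41.6% and 61.5% without thinning. In fibroblast-like cells it was 1.04% and 1.84% and in enteric glia-like cells 0.795% and 1.38%. Its receptor Ccr6 was found chiefly in T/innate lymphoid-like cells, at 122 and 251 CPM.

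Ccl25, the ligand of Ccr9 known from small intestinal epithelium, had the largest ratio among ligands with at least 20 UMIs in each library in their main source class. Epithelial-like cells held 96.8% in control and 97.1% in maternal obesity of its UMIs, 60 and 703 UMIs in control and maternal obesity. The level was 1.06 CPM in the control library (0.811 to 1.37) and 16.5 CPM after maternal obesity (15.3 to 17.8), 15.4-fold higher after maternal obesity (11.9 to 20.6). It came from 49 of 2830 and 249 of 1412 cells, with no cell above 6.67% of the UMIs, so it did not rest on single cells. Cluster C3 had 4.51 CPM in the control library and 32.0 CPM after maternal obesity, 7.01-fold higher after maternal obesity (5.09 to 10.2), and C11 2.22 and 22.2 CPM, 9.64-fold higher after maternal obesity (5.52 to 19.9). C8, with 3 and 20 UMIs, had the same order at 0.354 and 2.78 CPM. The difference was thus found within clusters as well as over the class.

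At 3000 UMIs per cell, Ccl25 was found in 0.273% of 2563 control cells (0.110 to 0.562) and 3.50% of 1344 maternal obesity cells (2.58 to 4.62) of the epithelial-like class, and in 1.73% and 17.6% without thinning. In the fibroblast-like class it was found in 0 of 384 control cells (which allows up to 0.781%) and 0 of 1085 maternal obesity cells (which allows up to 0.276%), so the control epithelial share lies within what a count of 0 allows there. Its receptor Ccr9 was at 135 and 37.3 CPM in T/innate lymphoid-like cells, in the other direction. The stretch of colon sampled and the epithelial make-up can differ between the libraries, and their part in Ccl25 was not tested.

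**Figure D4:**
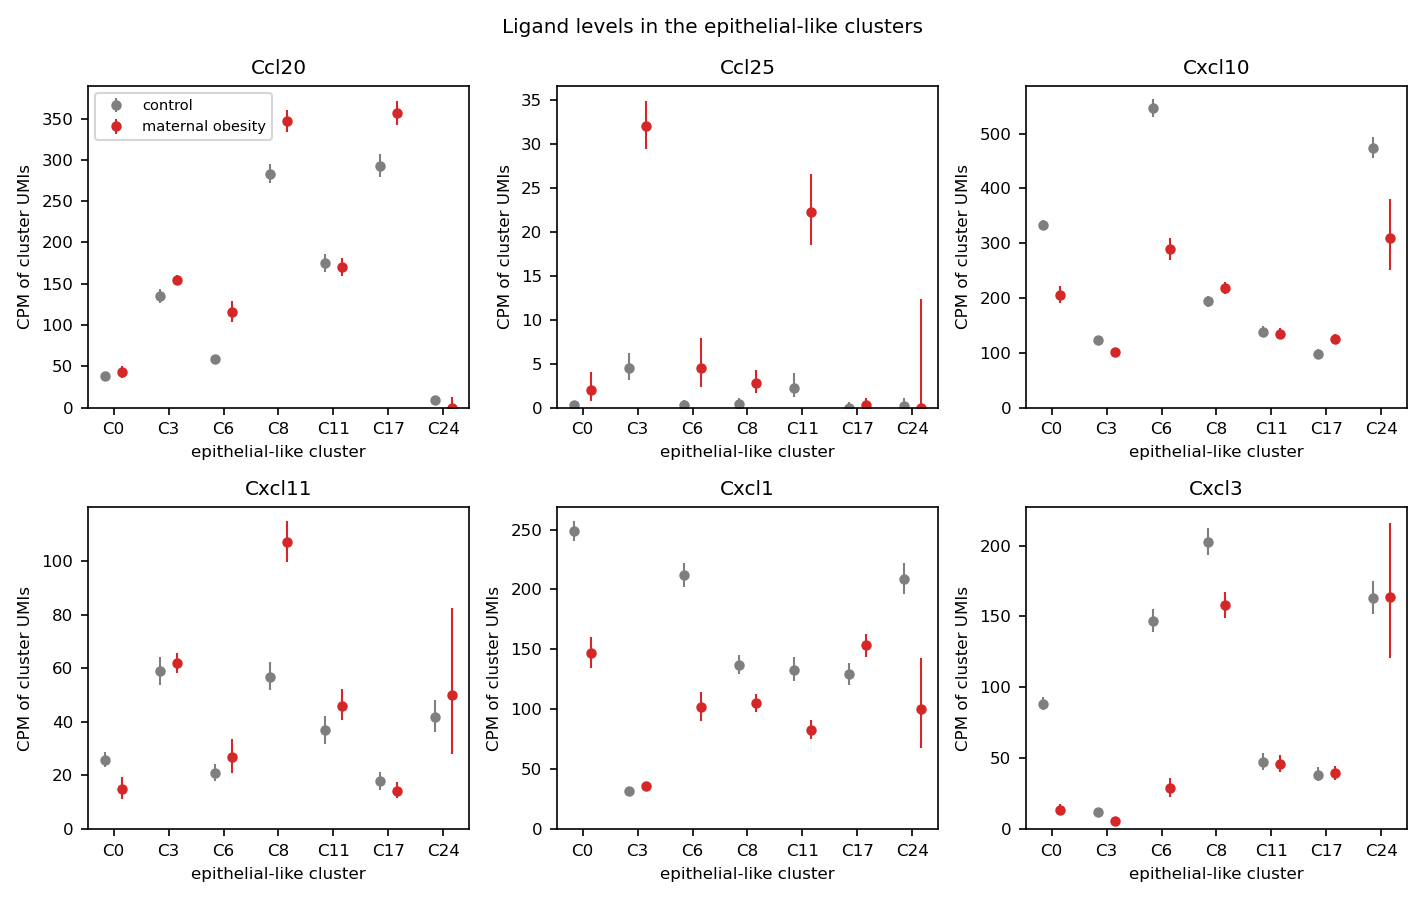
Level of 6 ligands in the 7 epithelial-like clusters, as CPM of the cluster's UMIs, in control (grey) and maternal obesity (red). Vertical lines are exact Poisson 95% intervals. Ccl25 is higher in maternal obesity in C3 and C11, Cxcl3 is lower in C0 and C6, and Ccl20 is lowest in C24 and highest in C17.

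A pair of further gut ligands are held on the cell membrane until they are shed. Cx3cl1, the ligand of Cx3cr1, was at 20.1 CPM in the control library and 19.46 CPM after maternal obesity in epithelial-like cells, a ratio of 0.968 (0.884 to 1.06), with 90.1% of its UMIs there. Cxcl16, the ligand of Cxcr6, was at 12.3 CPM in the control library and 13.2 CPM after maternal obesity in epithelial-like cells, a ratio of 1.08 (0.960 to 1.203), with C8 highest at 31.7 and 41.9 CPM. In macrophage-like cells Cxcl16 was at 64.1 and 66.0 CPM and in C9 at 82.2 and 55.3 CPM. Adam10 and Adam17, the proteases that shed both, were at 49.4 and 44.8 CPM and 29.8 and 27.7 CPM over all cells. Ccl28, the third epithelial ligand of the mucosa, had 10 and 3 UMIs in all.

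Of 23 ligands with at least 20 UMIs in epithelial-like cells, 3 were at least 2-fold higher (Ccl24, Ccl25 and Ccl5, background 5.16%) and 8 lower (Ccl21, Ccl3, Ccl6, Ccl7, Cxcl13, Cxcl2, Cxcl3 and Cxcl9, background 5.46%). Ccl5 there had 0 and 216 UMIs and came from 3 maternal obesity cells, and Ccl21 had 32 and 0 UMIs, with 71.9% in 1 control cell. Ccl24, an eosinophil-attracting ligand, had 28 and 109 UMIs spread over 23 of 2830 and 95 of 1412 cells, at 0.496 CPM in the control library and 2.56 CPM after maternal obesity, 5.09-fold higher after maternal obesity (3.38 to 8.12). Several of the lower ligands were myeloid ones at low epithelial levels. Cxcl2 was at 20.4 and 5.63 CPM and Ccl3 at 1.75 and 0.258 CPM in the epithelial-like class, far below the macrophage-like levels. Ccl3 there rested on 99 and 11 UMIs in 9 of 2830 and 3 of 1412 cells. The highest cells held 52.5% and 72.7% of them.

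Ccl24 was chiefly a macrophage ligand, with 70.6% in control and 71.1% in maternal obesity of its UMIs in macrophage-like cells. There it was at 112 CPM in the control library (88.5 to 140.2) and 287 CPM after maternal obesity (255 to 321), 2.54-fold higher after maternal obesity (1.98 to 3.33), in 24 of 71 and 33 of 125 cells. The highest cells held 26.0% and 27.0% of the UMIs. Ccl12, Ccl7 and Ccl6 were also higher in these cells, Ccl6 at 133 and 186 CPM with a ratio of 1.40 (1.09 to 1.82). Pf4, a CXC ligand outside the name rule, went with it, at 772 and 1558 CPM in macrophage-like cells, 2.02-fold higher (1.83 to 2.23).

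Ccl5, a ligand of Ccr1 made by activated lymphocytes, came almost wholly from T/innate lymphoid-like cells, which held 99.8% in control and 93.7% in maternal obesity of its UMIs. The level was 4233 CPM in the control library (4069 to 4403) and 1875 CPM after maternal obesity (1811 to 1939.7), 2.26-fold lower after maternal obesity (2.14 to 2.38). It rested on 19 of 87 and 30 of 191 cells, and the highest cells held 10.2% and 10.6%. The share of cells with Ccl5 was 20.8% of 77 control cells (12.4 to 31.5) and 15.5% of 181 maternal obesity cells (10.5 to 21.6), whose intervals overlap, against 0 of 2563 control cells (which allows up to 0.117%) and 0.149% of 1344 maternal obesity cells in the epithelial-like class. The name of this class was not stable: with a mitochondrial limit of 10%, with finer clustering or without the highest doublet scores no such class was among the source classes, and the highest source class for Ccl5 was then the epithelial-like one, with 0 control UMIs. Xcl1, the ligand of the dendritic cell receptor Xcr1, was at 223 CPM in the control library and 274 CPM after maternal obesity in the same class, 1.22-fold higher after maternal obesity (1.01 to 1.5002), and at 73.1 and 137 CPM in dendritic-like cells. Few cells had both at equal depth: 4 of 16 control and 10 of 28 maternal obesity cells with Ccl5 also had Xcl1. Xcl1 was found in 17 of 77 and 60 of 181 cells at that depth.

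Of 9 ligands with at least 20 UMIs in T/innate lymphoid-like cells, 3 were at least 2-fold higher (Ccl20, Ccl4 and Cxcl17, background 7.23%) and 1 lower (Ccl5, background 3.04%). Cxcl17, a mucosal CXC ligand, had 3 and 45 UMIs, 4.35-fold higher after maternal obesity (1.61 to 25.2), in 2 of 87 and 32 of 191 cells. Ccl4 rested on 1 cell with 92.9% of the maternal obesity UMIs, and Ccl20 had an interval that includes 1. The cytokine Lta, from the list of inflammatory cytokines, had the largest difference of that list, at 1.06 and 9.78 CPM over all cells.

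Ccl17 and Ccl22, the ligands of Ccr4, were low and myeloid. C9 held 80.1% of the Ccl17 UMIs, at 13.2 CPM in the control library and 49.5 CPM after maternal obesity, 3.68-fold higher after maternal obesity (2.34 to 6.35). These were 20 and 137 UMIs from 5 of 199 and 16 of 293 cells. A single cell held 60.0% of the control and 23.4% of the maternal obesity UMIs, so few cells carried the difference. Dendritic-like cells had 4.43 and 19.2 CPM, from 4 and 31 UMIs. Ccl22 was at 9.87 and 11.9 CPM in C9, a ratio of 1.19 (0.638 to 2.39). Ccl27, a ligand of Ccr10, was spread thinly: it was at 8.64 CPM in the control library and 13.7 CPM after maternal obesity in enteric neuron-like cells, a ratio of 1.57 (0.969 to 2.70), and at 25.9 and 6.68 CPM in mesothelium-like cells.

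Receptor transcripts were found mainly in lymphoid and myeloid classes. Over all cells Ccr1 was at 2.91 and 6.24 CPM, Ccr6 at 0.984 and 5.14 CPM, Cxcr3 at 0.552 and 1.54 CPM and Cx3cr1 at 2.12 and 5.47 CPM, each at least 2-fold higher after maternal obesity. Ccr8 and Xcr1 were so as well, from 6 and 16 and from 20 and 50 UMIs. Among all 16089 genes with at least 20 UMIs, 9.75% were at least 2-fold higher over all cells. Ccr7 was at 5.10 and 4.45 CPM, Ccr9 at 0.995 and 0.838 CPM, Cxcr2 at 0.908 and 0.896 CPM, Cxcr4 at 17.6 and 29.6 CPM, Cxcr5 at 0.573 and 0.896 CPM, Cxcr6 at 0.324 and 0.645 CPM, Ccr4 at 0.141 and 0.0770 CPM and Ccr10 at 0.281 and 0.154 CPM, all within 2-fold. Ccr2, the receptor of Ccl2, Ccl7 and Ccl12, was not analysed here. Sums over all cells move with the make-up of the libraries: macrophage-like cells were 1.03% and 1.73% of cells, and T/innate lymphoid-like cells 1.26% and 2.64%.

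Set beside its ligands, Ccr1 was at 40.8 and 84.1 CPM in macrophage-like cells. Cxcr2 was at 336 and 519 CPM in monocyte/granulocyte-like cells, the receiving side of Cxcl1, Cxcl2 and Cxcl3. Ccr7 was at 206 and 148 CPM in T/innate lymphoid-like and 206 and 31.7 CPM in dendritic-like cells. Xcr1 was nearly restricted to dendritic-like cells, at 19.9 and 28.6 CPM. Cxcr4 was at 507 and 528 CPM in C9 and 408 and 408 CPM in T/innate lymphoid-like cells. Ackr3, the atypical receptor that takes up Cxcl12, was at 241 and 260.4 CPM in mesothelium-like and 176 and 147 CPM in subepithelial fibroblast-like cells. Dpp4, a peptidase that trims several chemokines, was at 119 and 59.2 CPM over all cells, 2.01-fold lower (1.95 to 2.08).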

How the data were processed

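Single-cell transcripts of 1 control and 1 maternal obesity colon library were captured in droplets with poly-T primers. The deposited matrices hold whole-number UMI counts per gene and barcode. Cell Ranger 2.1.1 is listed, with no role, in the submitters' processing notes, while the file headers state cellranger 6.1.2, and which of the 2 gave these counts is not known. No build was named in the sources used here. The members and the gene lists were chosen with earlier results of these data known.

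Barcodes were kept from 500 genes upwards and up to 20% mitochondrial counts, 6879 of 8903 in control and 7236 of 9714 in maternal obesity. Clustering used scanpy 1.11.5 (Python 3.11.15, numpy 2.4.6, scipy 1.17.1, pandas 2.3.3) with 2000 variable genes without the ligands, 30 principal components, 15 neighbours and Leiden resolution 1. Clusters were named from marker lists by a rule set after the clusters were seen. A list gave its name where its markers were the most raised against the other cells, with 3 or more raised over 2-fold, and either held the most of the 10 leading genes (at least 2) or had a mean log2 excess of at least 1.2 and a lead of 0.3 over the next list. Other clusters were epithelial-like where epithelial markers exceeded the median cluster by a mean log2 of at least 3 and no leading gene was a marker of another type. Removing Scrublet doublets had been planned, but it called 2 control and 110 maternal obesity cells, under 0.5% in control, so no doublets were removed.

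UMIs were summed by class and divided by the class total as CPM. Ratios add 0.5 UMI to both sums, with exact conditional binomial 95% intervals, and levels have exact Poisson intervals. Genes with at least 20 UMIs were compared at 2-fold. Classes with under 50 cells in a library were not main source classes. Shares of cells and of ligand pairs were computed after thinning to 3000 UMIs, with shallower cells left out. Shares have Clopper-Pearson intervals. Every member is named, and genes that are no member come from fixed lists of receptors, proteases, cytokines and signalling genes, of which a receptor is not reported here. The scripts were tested on simulated data. Figures were drawn with matplotlib 3.10.9.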

Additional observations from a re-analysis of the deposited data

Results flagged for a closer look

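Ccl2 and Cxcl1 moved in opposite directions in different cell groups, with at least 20 UMIs in each library on both sides. None of these differences was tested, since each group has 1 library. Ccl2 was 3.33-fold higher after maternal obesity in subepithelial fibroblast-like cells (2.94 to 3.81) and 12.3-fold lower in dendritic-like cells (9.16 to 17.2), and the ratio of these 2 ratios is 41.0. In dendritic-like cells 1 cell held 34.1% of the control and 33.3% of the maternal obesity UMIs. Cxcl1 was 2.89-fold higher in fibroblast-like cells (2.42 to 3.50) and 2.40-fold lower in macrophage-like cells (2.27 to 2.53), a ratio of ratios of 6.93. Against cluster C9, where Cxcl1 was 2.95-fold lower (2.80 to 3.11), the ratio of ratios is 8.53.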

How the results depend on the processing

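No paired analysis was possible because each group has 1 library. Over all kept cells, 10 ligands were at least 2-fold higher and 2 lower. With each cluster weighted equally the counts were 5 higher and 4 lower. A limit of 1.5-fold gave 16 higher and 6 lower, and removing the highest doublet scores left 1 lower. Within the main source class, where 6 were higher and 4 lower, 1.5-fold gave 10 higher, a minimum of 50 UMIs left 3 higher, and finer clustering (Leiden resolution 2) left 2 lower. The log2 ratio of Ccl5 changed sign, to 9.15 with a mitochondrial limit of 10%, 7.82 without the highest doublet scores and 9.30 at resolution 2. In these settings the main class of Ccl5 became epithelial-like, with 0 control UMIs, since no T/innate lymphoid-like class was among the source classes. For Ccl21 it changed to -4.39 at resolution 0.5, where the main class became mesothelium-like. The main class changed for 11 ligands when unnamed clusters could be source classes, for 5 at resolution 2, for 4 each with a mitochondrial limit of 10%, with at least 1000 genes and without the highest doublet scores, and for 1 each at resolution 0.5 and with Scrublet calls removed. Of the 46 counts recomputed under the alternatives, 38 stayed within 1.5 times the reported count. Of the ligand ratios 448 stayed close, 105 moved and 4 were classed as reversed. Of the shares of cells, recomputed with cells thinned further, 26 stayed close and 32 moved. More ratios than those 4 changed direction. With clusters weighted equally, 24 of the 31 ratios over all cells kept their direction. It was kept by 24 of 28 ratios at resolution 2 and by 54 of 58 without the highest doublet scores. Scrublet calls removed, shared barcodes left out, and CPM without haemoglobin and mitochondrial genes were among the alternatives. The alternatives with unnamed clusters as source classes, with the clusters of a class weighted equally, with shared barcodes left out and with Scrublet calls removed were chosen after seeing the data. Counting intervals do not cover the spread between animals, which 1 library per group cannot show.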
